A study of Bubalus bubalis with 6 samples.

Results

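The C1QTNF genes, also called CTRP genes, encode secreted relatives of adiponectin. Each protein carries a globular C1q domain, the fold that complement C1q shares with tumor necrosis factor, and most members place a collagen-like stretch ahead of it through which chains assemble into trimers and larger forms. Members circulate as hormones or act near the cells that make them, and several have been linked to fat and glucose use in muscle and adipose tissue, to complement control and to matrix turnover. The family was followed here by gene symbol in buffalo muscle stem cells (MuSCs). Of the 9 members C1QTNF1, C1QTNF2, C1QTNF3, C1QTNF4, C1QTNF5, C1QTNF6, C1QTNF7, C1QTNF9 and C1QTNF12, 5 have a row under these symbols among the 24616 genes of the table, and 4 of these 5 reached the minimum for testing of 10 counts in total over the 6 samples. The symbols C1QTNF3, C1QTNF4, C1QTNF9 and C1QTNF12 have no row and were not analysed here, apart from 1 row that the table lists as FAM132A and describes as the gene of C1QTNF12.

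The study sequenced poly(A) RNA of 3 samples of proliferating MuSCs in growth medium with fetal bovine serum (GM samples) and 3 samples of MuSCs moved at near confluence to differentiation medium with horse serum (DM samples). Values per sample follow the order of the replicates, GM1 to GM3 and DM1 to DM3. Per the methods of the study, the cells were primary cultures from fetal longissimus muscle, released with collagenase and trypsin. The sources used here do not give whether the cells were sorted or whether the 6 samples came from separate cultures or animals, so p-values measure the spread between these samples, which may be technical. GM samples held between 36657735 and 40305237 counts on genes and DM samples between 35615864 and 38177614. The gene identifiers are those of Ensembl for cattle, no genome build is named with them, and coordinates are given as listed. MYOD1, MYOG, DES and MYF5, which define myogenic cells, had at least 674 counts in each sample.

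C1QTNF6, C1QTNF5 and C1QTNF1 were much higher in DM than in GM samples. Medium, serum and, by protocol, time in culture differ between the groups together with stage, so these cannot be told apart. C1QTNF6 rose 7.72-fold, C1QTNF5 rose 5.69-fold and C1QTNF1 rose 4.29-fold in DM over GM samples. C1QTNF2 stood on the other side, with a mean 1.73-fold higher in GM samples, which did not reach the fold change required for a call. C1QTNF7 was at the detection limit in both groups. A gene was called in edgeR's quasi-likelihood test over 15576 genes where its log2 fold change passed 1 in size at an adjusted p below 0.05. Of all tested genes, 25.3% were called in either direction. The 3 members called higher compare with 15.0% of all tested genes called higher, and the 0 members called lower with 10.3% called lower. DESeq2 also called 0 members lower, and 1 member, C1QTNF2, had an adjusted p-value under 0.05 in that direction with either tool. In all 4 tested members the groups were fully apart, which was so for 68.8% of tested genes, with 34.5% of genes wholly higher and 34.3% wholly lower in DM samples.

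**Figure D1:**
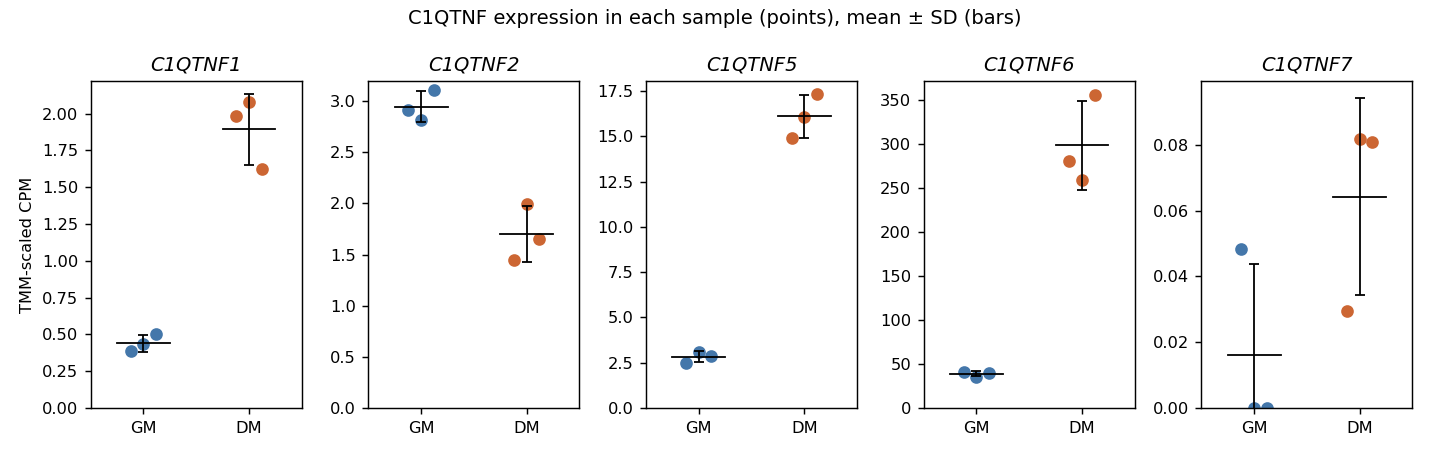
Expression of the 5 listed C1QTNF genes in TMM-scaled CPM, with each panel on its own axis from 0; points are the 3 GM (blue) and 3 DM (orange) samples, and black bars give mean ± SD. C1QTNF6 lies between 260 and 356 CPM in DM samples against 35.4 to 40.6 CPM in GM samples, C1QTNF2 runs the other way, and C1QTNF7 stays under 0.1 CPM.

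C1QTNF6 (ENSBTAG00000008074, chromosome 5, 75992622 to 75999893, minus strand) encodes CTRP6, a secreted protein described as a regulator of the alternative complement pathway. GM1 to GM3 held 1682, 1474 and 1517 counts, and DM1 to DM3 held 9469, 9502 and 13167. The DM samples all stood far above the GM samples, and DM replicate 3 was the highest. In CPM, which are counts scaled to a common library size with TMM factors, the GM mean was 38.7 ± 2.82 and the DM mean 299 ± 50.6 (SD, n = 3 each). The log2 fold change of 2.95 carried a standard error (SE) of 0.12 (edgeR adjusted p = 1.37e-08) and ranked 630 from the top among all tested genes. Without DM replicate 3 the log2 fold change was 2.81. Per kilobase of the listed gene length, the level of C1QTNF6 exceeded that of 64.2% of tested genes in GM samples and 95.1% in DM samples.

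C1QTNF5 (ENSBTAG00000027766, chromosome 15, 30448399 to 30450337, minus strand) encodes CTRP5, which is known from an inherited late-onset degeneration of the retina. Its counts were 104, 129 and 109 in GM1 to GM3 and 504, 588 and 641 in DM1 to DM3. All DM samples were above all GM samples, with a narrow spread in each group. The mean went from 2.83 ± 0.299 to 16.1 ± 1.20 CPM (log2 fold change 2.51, SE 0.13, edgeR adjusted p = 7.75e-08). Its level per length exceeded that of 31.4% of tested genes in GM samples and 61.1% in DM samples. The gene next to it is MFRP, a retinal membrane protein gene that is known to share a transcript with C1QTNF5. MFRP lies 264 bases away on the same strand and had 1 count in DM replicate 1 and 0 in the other 5 samples. The reads counted on C1QTNF5 were thus accompanied by no more than 1 read on MFRP.

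C1QTNF1 (ENSBTAG00000006276, chromosome 19, 53978217 to 53984772, minus strand) encodes CTRP1, a plasma protein also made by the vessel wall. GM1 to GM3 held 16, 18 and 19 counts and DM1 to DM3 held 67, 76 and 60. The groups did not overlap, but the counts are low and the fold change is the least precise of the 3 called members. C1QTNF1 rose from 0.440 ± 0.0580 to 1.89 ± 0.240 CPM (log2 fold change 2.10, SE 0.29, edgeR adjusted p = 9.28e-05). Even in DM samples its level per length exceeded that of 19.6% of tested genes only. It fails the study's rule for reliable expression, which asks for an RPKM of 1 or more in over 50% of samples.

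C1QTNF2 (ENSBTAG00000001367, chromosome 7, 74035698 to 74057799, minus strand) encodes CTRP2, which has been studied for its effect on fuel use in muscle cells. Its counts were 121, 117 and 118 in GM1 to GM3 and 49, 73 and 61 in DM1 to DM3. The GM samples were nearly equal, and every DM sample lay below them. The means were 2.95 ± 0.152 CPM in GM samples and 1.70 ± 0.275 CPM in DM samples (log2 fold change -0.79, SE 0.21, edgeR adjusted p = 0.00754). The difference is larger than the spread between samples, but smaller than the fold change of 2 required for a call. A small nuclear RNA gene on the opposite strand lies within the interval of C1QTNF2 and had 0 counts in all 6 samples.

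C1QTNF7 (ENSBTAG00000010343, chromosome 6, 115276058 to 115404039, plus strand) had 2, 0 and 0 counts in GM1 to GM3 and 1, 3 and 3 in DM1 to DM3. Each sample was at or under the limit of 3 counts, so no fold change is given. The row FAM132A, picked out by its description after its counts were seen, stands for C1QTNF12, whose protein adipolin is cut by furin. It held 0, 5 and 1 counts in GM1 to GM3 and 1, 2 and 0 in DM1 to DM3, which falls short of the minimum for testing. C1QTNF8, which is outside the 9 members, had 0 counts in all 6 samples, and a count of 0 allows between 0.0721 and 0.0888 CPM depending on the sample. These limits cover counting error only. A difference in these genes was not detectable at this depth.

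**Figure D2:**
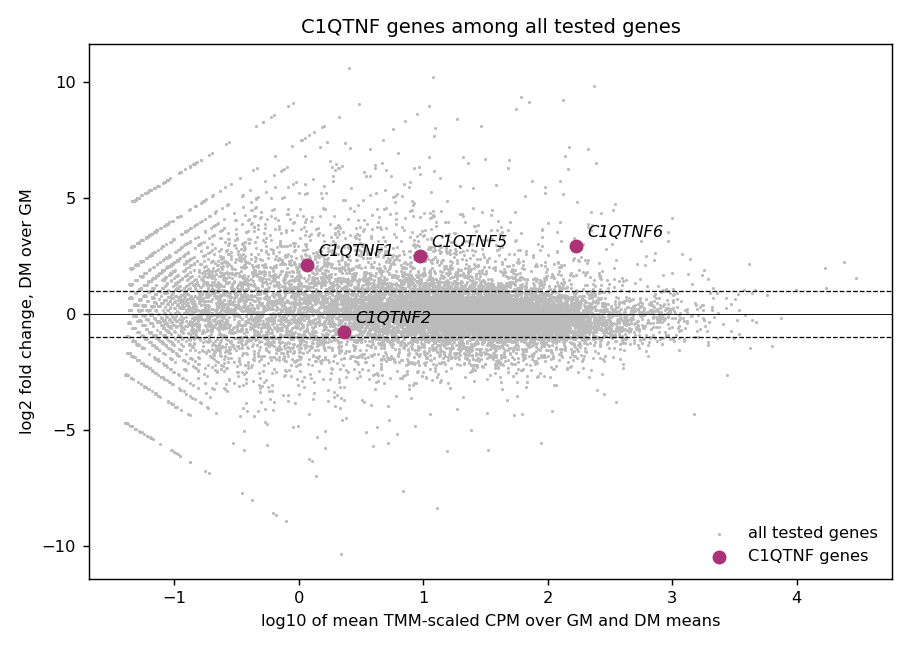
Log2 fold change (DM over GM) against the log10 of mean CPM for all 15576 tested genes (grey) and the 4 tested C1QTNF genes (purple); dashed lines mark log2 fold changes of -1 and 1. C1QTNF6 is both the most abundant and the most raised member at 2.95, C1QTNF5 at 2.51 and C1QTNF1 at 2.10 lie above the upper line, and C1QTNF2 at -0.79 lies inside the lines.

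The members differ widely in level. Levels between genes were compared as CPM per kilobase of the listed length, with no test. In GM samples the order was C1QTNF6 at 14.3 ± 1.04, C1QTNF2 at 3.29 ± 0.170, C1QTNF5 at 2.15 ± 0.227, C1QTNF1 at 0.175 ± 0.0231 and C1QTNF7 at 0.0101 ± 0.0176 (SD, n = 3). In DM samples the order was C1QTNF6 at 110 ± 18.7, C1QTNF5 at 12.2 ± 0.913, C1QTNF2 at 1.89 ± 0.307, C1QTNF1 at 0.755 ± 0.0958 and C1QTNF7 at 0.0405 ± 0.0189. No neighbours in either order overlapped in their sample values. C1QTNF2 and C1QTNF5 exchanged places, and the other 3 members kept theirs. The lengths are those of the cattle annotation, and 1 length was used per gene.

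C1QTNF6 made up most of the family's level in every sample. Its share of the summed level per length of the 5 listed members was 73.7, 69.8 and 71.7% in GM1 to GM3 and 88.3, 86.2 and 89.3% in DM1 to DM3. The share of C1QTNF2 was 16.5 ± 0.443% in GM samples and 1.54 ± 0.401% in DM samples. Its own level went from 3.29 to 1.89 only, so its share fell mainly because the summed level rose. C1QTNF5 held 10.8 ± 1.61% and 9.85 ± 1.03%, so its share moved little while its own level rose. The summed level went from 19.9 ± 1.01 in GM samples to 125 ± 19.2 in DM samples.

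**Figure D3:**
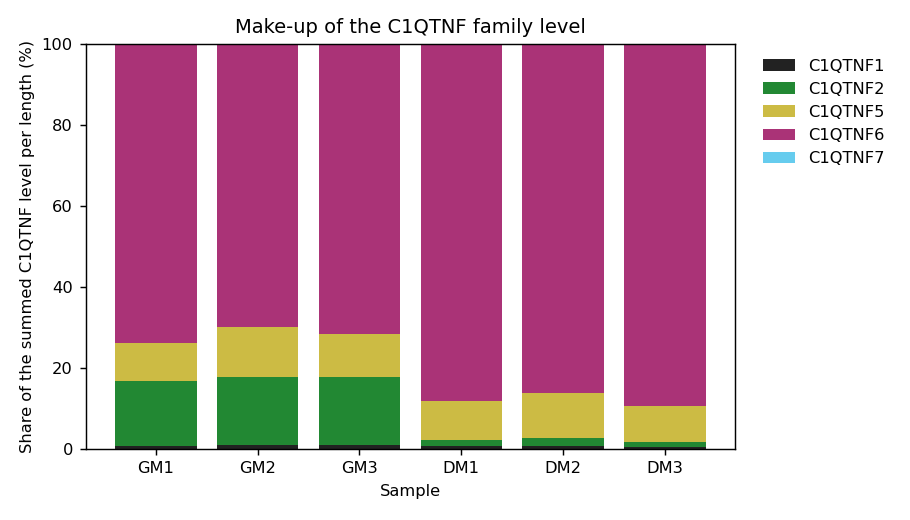
Share of the summed level per length (%) that each C1QTNF gene took in each of the 3 GM and 3 DM samples, as stacked bars that add up to 100%. The C1QTNF6 segment grows from 69.8 to 73.7% in GM samples to 86.2 to 89.3% in DM samples, mainly beside a shrinking C1QTNF2 segment, and C1QTNF7 is too small to see.

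Ratios between members within a sample do not depend on how libraries are scaled, so the 6 pairs among the tested members were compared in this way with a two-sided exact permutation test over samples. The smallest p that 3 samples against 3 allow is 0.1, so no pair could pass 0.05. The ratio of C1QTNF2 to C1QTNF6 moved most, from -2.12 ± 0.0750 on the log2 scale in GM samples to -5.87 ± 0.384 in DM samples, which is 13.4-fold lower in DM samples without overlap (exact permutation p = 0.1, adjusted 0.12). The ratio of C1QTNF2 to C1QTNF5 was 9.98-fold lower in DM samples (exact permutation p = 0.1, adjusted 0.12), also without overlap. The ratio of C1QTNF5 to C1QTNF6 was -2.74 ± 0.251 on the log2 scale in GM and -3.16 ± 0.175 in DM samples, with overlap of the groups (exact permutation p = 0.2, adjusted 0.2). The overlap came from GM replicate 1 at -2.977 and DM replicate 2 at -2.975, and the mean ratio was 1.34-fold lower in DM samples. The ratio of C1QTNF1 to C1QTNF6 was lower in all 3 DM samples, by 1.78-fold (exact permutation p = 0.1, adjusted 0.12).

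The transcript table holds 6 mRNA transcripts of the 5 listed members, 1 each for C1QTNF1, C1QTNF2, C1QTNF5 and C1QTNF6 and 2 for C1QTNF7. Each transcript has the same counts as its gene in all 6 samples, and both C1QTNF7 transcripts carry the same 9 counts. Isoforms therefore could not be compared. In a fit over all 16352 tested transcripts, which counts the same reads, the transcripts of C1QTNF1, C1QTNF5 and C1QTNF6 were called, against 25.6% of transcripts called in either direction.

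**Figure D4:**
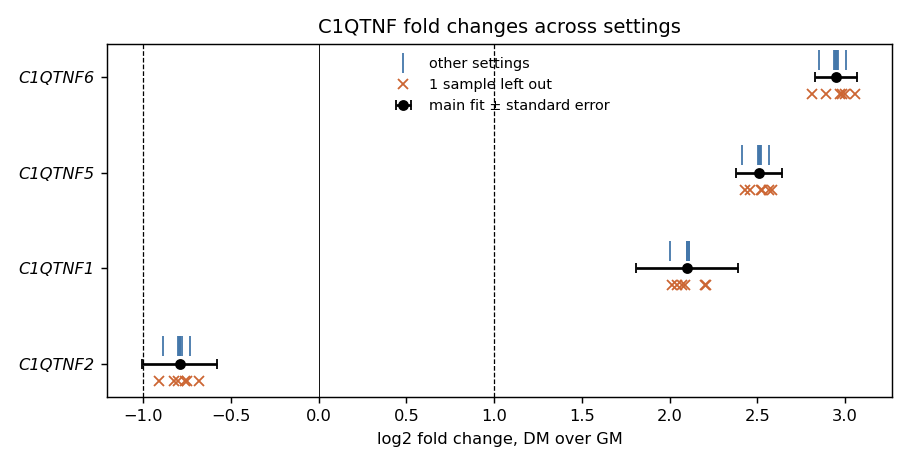
Log2 fold changes (DM over GM) of the 4 tested C1QTNF genes in the main edgeR fit (black, ± standard error), with each of 6 samples left out (orange crosses) and under the other settings tried (blue ticks); dashed lines mark -1 and 1. C1QTNF6 stays between 2.81 and 3.06, C1QTNF5 between 2.41 and 2.58, C1QTNF1 stays above 1 and C1QTNF2 lies between -0.91 and -0.69.

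The gene lists for cell types were set beside the rise of C1QTNF6. Of 8 fibroblast and matrix genes, 5 were called higher in DM samples. The list summed to 35685 to 36471 CPM in GM samples and 97442 to 123141 CPM in DM samples. Most of this sum came from COL1A1, COL3A1 and COL1A2, with DM means of 44328, 39251 and 23420 CPM. PDGFRA (log2 fold change 0.58), DPT (0.96) and POSTN (-0.93) were not called, and POSTN was lower in all DM samples. Of 9 tested myogenic genes, 6 were called higher and 1 lower, with sums of 3322 to 4029 CPM and 6098 to 8868 CPM. All 6 proliferation genes were called lower. Among all tested genes, 15.0% were called higher and 10.3% lower. In bulk samples, more cells of a type and more RNA per cell cannot be told apart, and the part of either list in the rise of C1QTNF6 was not tested. DM replicate 3, the sample with the most C1QTNF6, was the lowest DM sample for 6 of the 8 fibroblast and matrix genes and the highest for the other 2, POSTN and DPT. COL3A1 stood there at 31316 CPM against 44725 and 41714 CPM, and POSTN at 354 CPM against 175 and 189 CPM. Of the 9 myogenic genes, 6 were highest in DM replicate 3 (DES, ACTC1, TNNT1, MYH8, MYH3 and CKM). MYOD1 and MYOG were lowest there, and 1 lay between the other DM samples. MYH3, the embryonic myosin heavy chain, stood at 2708 CPM against 1647 and 1837 CPM, and MYOD1 at 39.3 CPM against 67.2 and 75.0 CPM. As sums, DM replicate 3 was the highest DM sample for the myogenic list, at 8868 CPM. It was the lowest DM sample for the fibroblast and matrix list, at 97442 CPM, a sum made up mostly of COL1A1, COL1A2 and COL3A1. Single genes of each list went both ways there, and a link to C1QTNF6 was not tested.

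Markers of other cell types were low. Their calls are to be read beside 15.0% of all tested genes called higher and 10.3% called lower. The 7 adipocyte genes summed to between 6.94 and 8.34 CPM in GM samples and between 7.27 and 8.84 CPM in DM samples, with 2 called higher (CIDEC and FABP4) and PPARG called lower. FABP4 was near the detection limit, with 0, 1 and 1 counts in GM1 to GM3 and 15, 16 and 13 in DM1 to DM3. It reached the minimum for testing only through its DM samples. LEP, the leptin gene, had 3 counts or fewer in every sample. The 5 endothelial genes summed to 3.88 to 4.59 CPM in GM samples and 5.15 to 6.05 CPM in DM samples, with 1 called higher and 2 lower. TEK, the gene called higher (log2 fold change 1.51), made up most of the sum in each DM sample. VWF (-1.41) and CDH5 (-2.24) were called lower, and KDR (-0.74) and PECAM1 (1.41, at most 8 counts in a sample) were not called. The median log2 value of the list was -0.74, so the higher sum does not stand for the list as a whole. The 5 macrophage and leukocyte genes summed to 6.15 to 7.96 CPM and 7.16 to 13.5 CPM, with CD14 called higher and CD68 lower, and PTPRC had at most 2 counts in a sample. The 4 listed cartilage genes summed to 6.99 to 7.46 CPM in GM samples and 4.32 to 21.3 CPM in DM samples, with 2 called higher and 1 lower, and COL9A1 had 0 counts in all samples. The 21.3 CPM and the call of ACAN, a cartilage proteoglycan, came with DM replicate 3. ACAN was at 2.84, 3.55 and 20.4 CPM in DM1 to DM3, overlapping the GM samples, and without DM replicate 3 its log2 fold change was 0.14 (edgeR adjusted p = 0.556).

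Other genes with a C1q domain were followed as a list of 21, all of which are in the table and 15 of which were tested. EdgeR called 3 higher and 2 lower and left 10 uncalled, where 15.0% of all tested genes were called higher and 10.3% lower, and the median log2 value was 0.43 against 0.03 over all tested genes. The 3 called higher include both chains of type VIII collagen, a short-chain network collagen. COL8A1 rose from 2.90 ± 0.383 to 32.4 ± 6.76 CPM (log2 fold change 3.48, SE 0.17, edgeR adjusted p = 4.16e-08), and COL8A2 rose by 2.32 on the log2 scale, from 4.26 ± 0.331 to 21.3 ± 8.54 CPM. CBLN3, a cerebellin, rose by 4.10 on the log2 scale, from 2, 4 and 5 counts in GM1 to GM3 to 44, 50 and 80 in DM1 to DM3. The called falls were those of EMILIN1, an elastic fibre glycoprotein, from 537 to 247 CPM, and of MMRN2, at or under 27 counts in each sample. The call of MMRN2 was lost without GM replicate 3 (log2 fold change -1.13) and without DM replicate 1 (-1.49). ADIPOQ, the adiponectin gene, had 8, 3 and 4 counts in GM1 to GM3 and 1, 7 and 14 in DM1 to DM3, and was not called. The chains of complement C1q itself, C1QA, C1QB and C1QC, had at most 14 counts in any sample.

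Receptors and signaling partners described for adiponectin or C1QTNF proteins made a list of 11, of which 8 were tested. Of these, 2 were called higher and 0 lower, beside 15.0% and 10.3% of all tested genes, and the median log2 value was 0.32. The receptor ADIPOR1 stood at 58.2 ± 1.70 CPM in GM samples and 57.4 ± 0.426 CPM in DM samples (log2 fold change -0.02, SE 0.062, edgeR adjusted p = 0.801). ADIPOR2 went from 26.4 ± 1.12 to 32.1 ± 0.251 CPM (log2 fold change 0.28, edgeR adjusted p = 0.00498), which is under the fold change required. CDH13, the T-cadherin that binds adiponectin, was at 39.4, 38.0 and 85.5 CPM in DM1 to DM3 against 37.1 to 44.8 CPM in GM samples, so only DM replicate 3 stood out. The 2 called genes were IRS2, an insulin receptor substrate, with a log2 fold change of 1.31, and APPL2, a relative of the adaptor that binds adiponectin receptors, with 1.07. RXFP1, MFRP and ADGRB3 had at most 2 counts in a sample.

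AMPK and energy-sensing genes, a downstream branch studied for adiponectin-type hormones, made a list of 20, of which 19 were listed and tested. Of these, 6 were called higher, 0 lower and 13 neither, beside 15.0% higher and 10.3% lower among all tested genes, and the median log2 value was 0.22. PPARGC1A, the coactivator of mitochondrial genes, rose by 3.77 on the log2 scale (0.275 ± 0.113 CPM in GM and 3.77 ± 0.577 CPM in DM samples). PRKAG3, the muscle-type gamma subunit of AMPK, rose by 2.79, from 1.15 ± 0.221 to 7.95 ± 1.52 CPM. ACACB, the carboxylase that controls fat entry into mitochondria, was called with a log2 fold change of 2.67, but its DM samples were at 37.5, 30.7 and 3.97 CPM, and DM replicate 3 lay within the GM range of 3.40 to 4.32 CPM. Without DM replicate 3 its log2 fold change was 3.18, and without DM replicate 1 it was 2.20.

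Enzymes and chaperones that fold and secrete proteins with a collagen domain made a list of 24, all of them tested. None was called higher and 4 were called lower, beside 15.0% and 10.3% of all tested genes, and the median log2 value was -0.08, with 12 values on each side of 0. COLGALT2, a collagen galactosyltransferase, fell by 1.96 on the log2 scale, from 1.54 ± 0.296 to 0.393 ± 0.0696 CPM. PDIA4, a disulfide isomerase, fell by 1.21, from 563 ± 8.07 to 244 ± 23.7 CPM. FURIN, the protease that cuts adipolin, fell by 1.04, from 178 ± 5.05 to 86.5 ± 6.33 CPM, close to the limit for a call, and without DM replicate 2 its value was -0.97 and it was not called. CALR, a chaperone of the endoplasmic reticulum, was called barely past the limit (log2 fold change -1.01), and without DM replicate 3 its value was -0.97 and it was not called.

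**Figure D5:**
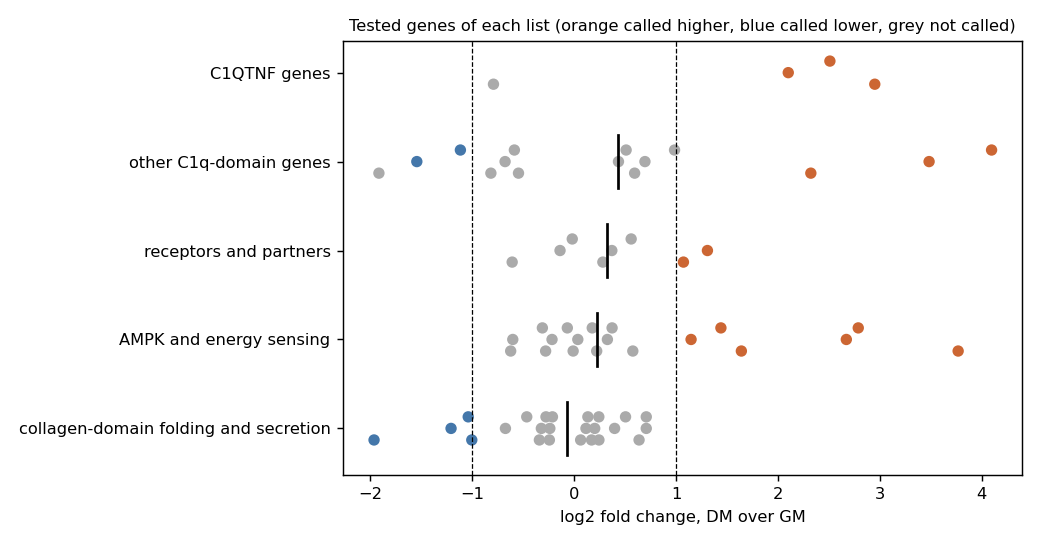
Log2 fold changes (DM over GM) of the tested genes in the C1QTNF family and in 4 related lists, with points orange where called higher, blue where called lower and grey where not called; black bars are medians of the related lists and dashed lines mark -1 and 1. The folding and secretion list of 24 tested genes centres on -0.08, with 0 called higher and 4 lower. The AMPK list of 19 tested genes has 6 called higher and 0 lower. Among all tested genes, 15.0% were called higher and 10.3% lower.

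The genes with the pattern most like that of C1QTNF6 over the 6 samples were picked by Pearson's r of log2 CPM among 8059 named genes whose mean reached 10 CPM. They were PLBD1 (r = 0.9996), C14orf1 (0.9995), COL8A1 (0.9994), FN1 (0.9992) and ABHD4 (0.9991). All r values come from the same 6 libraries and rest largely on the gap between the GM and DM samples. FN1, the fibronectin gene, was at 7417, 6311 and 6823 CPM in GM1 to GM3 and at 26442, 24249 and 30014 CPM in DM1 to DM3. In FN1 as in C1QTNF6, DM replicate 3 was the highest sample and GM replicate 2 the lowest. FN1 was picked by its likeness over these same samples, so the shared order is no separate evidence. PLBD1 rose from 1.06 ± 0.0881 to 23.1 ± 7.06 CPM, the steepest rise of the 5.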

How the data were processed

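The count columns hold raw counts per gene or mRNA transcript, as deposited by the authors, without normalization. The deposited RPKM columns come from the authors, who describe RPKM as reads scaled by gene length and by sequencing depth. The methods name HISAT2 and a buffalo genome, the tables list cattle identifiers, and GEO's processing notes by the submitters name Bowtie 0.12.2 and the mouse builds mm8 and mm9. Which aligner, counter and genome build gave these tables is not given in the sources used here. Columns of fold changes, p-values and q-values in the authors' lists of differential features were not used. The number of sample columns left unmapped was 0.

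Counts of 3 GM and 3 DM samples were fitted with edgeR 4.0.16 (glmQLFit, glmQLFTest) in R 4.3.3, with TMM normalization, keeping features that summed to 10 counts or more, with Benjamini-Hochberg adjustment of p-values over all tested features. Standard errors come from the F statistic. Levels per length are TMM-scaled CPM per kilobase. Likeness used log2 CPM with a prior count of 2. A sample with 3 counts or fewer was taken as at the detection limit. Alternatives were DESeq2 1.42.0, other scalings, filters and thresholds, a replicate block and each sample left out. Scripts were tested on simulated data. Figures were drawn with matplotlib 3.10.9 in Python 3.11.15. All 9 member symbols occur in a RefSeq gene table of buffalo. No member sequences were read.

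The members and lists were chosen with earlier results of these data known. Genes named beyond the members are the 3 called genes of each related list with the largest change, ADIPOQ, ADIPOR1, ADIPOR2, CDH13, the 5 most similar to C1QTNF6 and neighbours; EMILIN1, MMRN2, CALR, ACAN, the C1q chains and single markers were named after their values were seen.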

Additional observations from a re-analysis of the deposited data

How the results depend on the processing

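C1QTNF5 and C1QTNF6 kept their calls under all 15 alternatives, and C1QTNF1 under the 14 in which it was tested, since the RPKM rule removes it and leaves 2 members called higher. Leaving out 1 sample gave 2.01 to 2.21 for C1QTNF1, 2.43 to 2.58 for C1QTNF5, 2.81 to 3.06 for C1QTNF6 and -0.91 to -0.69 for C1QTNF2. With no minimum fold change C1QTNF2 was called lower at -0.79, which gave 1 member called lower. In that setting 9813 of the 15576 tested genes were called, and 47 in the related lists. The RPKM rule, which left 11587 genes to test, gave 2197 genes and 8 in the lists. Named genes that this rule left untested include CBLN3, COL8A1, PPARGC1A, PRKAG3, ACACB, PLBD1, COLGALT2, MMRN2 and ACAN. A test against a fold change of 2 gave 2293 of 15576 genes and 10 in the lists. The main fit gave 3936 of 15576 genes and 17 in the lists. C1QTNF7 could be fitted only with no filter, with a log2 fold change of 1.78 (adjusted p = 0.256 from edgeR). Over the samples left out, CDH13 ran from -0.11 to 0.59 and ADIPOQ from -0.12 to 1.19, both lowest without DM replicate 3. ADIPOR1, at -0.02, ran from -0.034 to 0.0040, the latter without GM replicate 3, and turned to 0.037 under the RPKM rule. The cause of these turns was not tested. APPL2 (0.97) and ABHD4 (0.95) were not called with library size alone, and FURIN (-0.98) and CALR (-0.95) were not called under the RPKM rule. In the test against a fold change of 2, edgeR adjusted p-values were 0.298 for APPL2, 0.446 for ABHD4, 0.473 for FURIN, 0.798 for CALR, 0.272 for EMILIN1, 0.294 for MMRN2 and 0.332 for ACAN. CALR also lost its call under filterByExpr (-0.99), and MMRN2 (adjusted p = 0.0625) and ACAN (adjusted p = 0.0998) lost theirs in DESeq2. With library size alone ACAN had an adjusted p of 0.0531 in edgeR, and leaving out any GM sample gave 0.0976 to 0.114. The settings for EMILIN1, MMRN2, CALR and ACAN were read after seeing the data.

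Shared replicate numbers showed no sign of pairing, with deviations of same-numbered samples correlating at -0.0076, -0.022 and -0.010. These correlations were taken over all tested genes with 3 samples per group, so they cannot exclude a pairing. With the replicate block the members had log2 fold changes of 2.10 for C1QTNF1, -0.80 for C1QTNF2, 2.51 for C1QTNF5 and 2.94 for C1QTNF6, with 3837 genes called in all, and no member changed its call. MMRN2 lost its call with the block (-1.48, edgeR adjusted p = 0.0538), and the log2 fold change of ACAN was 1.06. Counts of 16 to 19 in GM samples limit the precision of C1QTNF1, and the depth allows no comparison of C1QTNF7 or C1QTNF12.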
